A study of Schizosaccharomyces pombe with 2 samples.

Results

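Antisense transcripts are made from the strand opposite to a gene. In growing fission yeast, *Schizosaccharomyces pombe*, they arise when RNA polymerase II starts at an upstream or downstream promoter and reads into a neighbouring gene, or when it starts inside a gene body, and many are removed by the nuclear exosome or kept low by chromatin factors. Genes of meiosis and sporulation are held silent in growing cells, and some of them are known to carry antisense transcripts.

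The antisense models of untreated WT cells are described here. PacBio Iso-Seq reads full-length cDNA and gives the strand, start, exons and 3′ end of a transcript. A model is 1 collapsed transcript structure of the library. A model was taken as antisense when at least 1 nt of its exons lay on an exon of a protein-coding gene of the opposite strand (the host) and none on an exon of a gene on its own strand, with annotated lncRNA and ncRNA genes set aside. By this rule 737 of the 26057 nuclear models were antisense (2.83%, 95% exact interval 2.63–3.04).

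The study compared mutants of several families of chromatin remodelers, and of the transcriptional regulator Prf1, with WT. It centred on the CHD family and made 2 Iso-Seq libraries. The first holds only WT of strain YZH_001, mating type h+ with the markers ade6-M216, ura4-D18 and leu1-32, which was untreated and kept at 32 °C in the rich medium YES. The second, the Stress pool, combines WT and *hrp1*Δ*hrp3*Δ (hrp1del::kanMX hrp3del) cells without stress, with 14 mM caffeine or with 200 ng/ml clotrimazole. The labels put both in batch 1, while the design text has WT alone in a first run, so run, depth, genotype and treatment cannot be told apart between them. Each library is 1 sample with no replicate, so no p-value was computed, and the exact intervals cover counting error only. Models of 1 host often share a start and are not independent. The number of reads behind a model is unknown, so a count of models is not a level of RNA. The same rule found 9640 antisense models among the 69823 nuclear models of the pool (13.8%, 13.6–14.1).

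The starts and introns that recur below are shown as sequence, from the RefSeq assembly ASM294v3. Fission yeast promoters favour a pyrimidine just before a purine at the transcription start site (TSS), and the first set shows that pair at the commonest start of the hosts with most models. Each line runs 5′ to 3′ on the antisense strand, and the capitals mark the last base before the start and the start itself. The lines for *crp79*, *mug27* and SPBP8B7.32 are shorter because they lie in a 3′ UTR.
*crp79*, I:1792463-1792492, + strand, 14 models: tagggttatactagcaaatccatcCGttca
SPBP8B7.32, II:3631000-3631029, − strand, 6 models: tacgagcgtattcctataagcaagTGactt
*meu1*, I:3804295-3804355, − strand, 10 models: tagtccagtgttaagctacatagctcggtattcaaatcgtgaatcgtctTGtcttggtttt
*cao2*, II:4426268-4426328, + strand, 4 models: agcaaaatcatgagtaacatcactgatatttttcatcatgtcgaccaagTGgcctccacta
*pma2*, III:794457-794517, − strand, 2 models: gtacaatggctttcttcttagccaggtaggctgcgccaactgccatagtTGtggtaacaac
*mug27*, III:1677165-1677194, + strand, 7 models: tacttttaagcgtacaggttgatcTAccta
*hhy1*, I:91847-91907, + strand, 6 models: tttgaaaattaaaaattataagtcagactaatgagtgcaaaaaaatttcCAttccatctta
*num1*, II:899923-899983, − strand, 4 models: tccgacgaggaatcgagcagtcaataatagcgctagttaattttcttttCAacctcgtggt
*meu18*, II:1160714-1160774, − strand, 5 models: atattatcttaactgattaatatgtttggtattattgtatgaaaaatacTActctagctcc

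The second set shows introns of antisense models, with the GT and AG at their ends in capitals. CTAAC, the core of the usual fission yeast branch site, is also in capitals where it occurs. None of these introns is annotated. The intron listed under *usp101* lies within *pth2*, another host of the same model.
*crp79*, I:1794509-1794580, + strand, 6 models: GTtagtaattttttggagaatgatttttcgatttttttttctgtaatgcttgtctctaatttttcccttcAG
*crp79*, I:1795577-1795630, + strand, 2 models: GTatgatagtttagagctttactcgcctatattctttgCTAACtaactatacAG
*abc1*, I:4463934-4463977, + strand, 1 model: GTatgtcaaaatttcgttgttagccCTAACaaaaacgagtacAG
*abc1*, I:4464303-4464346, + strand, 1 model: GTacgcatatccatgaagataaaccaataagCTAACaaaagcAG
*fzr2*, I:189041-189096, − strand, 1 model: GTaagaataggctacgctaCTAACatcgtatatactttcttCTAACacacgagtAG
*usp101*, I:2460747-2460791, + strand, 1 model: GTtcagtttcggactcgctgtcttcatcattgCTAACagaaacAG
*sfc3*, II:2753892-2753965, − strand, 1 model: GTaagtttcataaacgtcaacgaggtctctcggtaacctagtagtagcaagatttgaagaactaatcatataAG
*sfc3*, II:2753892-2753933, − strand, 1 model: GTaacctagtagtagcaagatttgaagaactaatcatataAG
*spo4*, II:3829042-3829129, − strand, 1 model: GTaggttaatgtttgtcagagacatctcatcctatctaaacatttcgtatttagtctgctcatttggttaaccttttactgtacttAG

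The question was first which genes carry antisense models in WT. The 737 models lay over 430 of the 5113 protein-coding genes (8.41%, 7.66–9.20), which is the background for every list below. Hosts were found on all 3 chromosomes at similar shares, with 209 of 2333 genes on chromosome I (8.96%), 142 of 1865 on II (7.61%) and 79 of 915 on III (8.63%). The models were split evenly between the strands, 367 on + and 370 on −. Most of them, 671, lay over 1 host, 64 lay over 2 and 2 lay over 3. Within 100 kb of the ends of chromosomes I and II, 13 of 122 genes were hosts (10.7%, 5.80–17.5), an interval that includes the background.

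Most hosts had few models. A single model was found on 238 hosts, 2 models on 106, 3 to 4 on 66, and 5 or more on 20. The 10 hosts with the most models held 84 of the 737 (11.4%). They were *crp79* with 16, SPBP8B7.32 with 11, *meu1* with 10, *cao2* with 9, *pma2* and *mug27* with 8 each, and *hhy1*, *num1*, *mbx2* and *meu18* with 7 each.

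*crp79* (SPAC1610.03c, I:1792433-1794972, − strand) encodes a poly(A)-binding protein. Of its 16 antisense models, 14 started within 4 nt of each other, at I:1792484 to I:1792488, in the 3′ UTR and 33 to 37 nt from the annotated start of *mrpl1*, a gene that points away from it. The other two started in the coding sequence, 307 and 1652 nt into the gene from its end. All 16 ran past the annotated start of *crp79*, by 239 to 830 nt, and were 1578 to 3315 nt long. The authors' collapse joined models that share a 3′ end and differ only by a shorter 5′ end, and kept models with different 3′ ends, so shared starts with many ends are partly what the processing leaves, here and at the loci below. The annotation gives *crp79* no 5′ UTR, so the distance past its start is counted from the first codon. WT held 3 sense models (models that share an exon base with the gene on its own strand) over *crp79*, none of which covered 50% or more of its coding sequence.

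*meu1* (SPAC1556.06, I:3802551-3804954, + strand) had 1 start cluster. All 10 of its models started in the coding sequence around I:3804305, 649 nt into the gene from its end, and were 1020 to 2195 nt long. Of these, 7 ran past the start of *meu1* and 3 stopped within it. No annotated non-coding gene lay under them.

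*mug27* (SPCC417.06c, III:1677093-1679436, − strand) encodes a protein kinase of spore formation. There, 7 of 8 models started at III:1677190 to III:1677196 in the 3′ UTR, 129 to 135 nt from the start of *cfh2*, and 1 started in the coding sequence. The 8 models covered 44% to 96.6% of the coding sequence. WT held no sense model over *mug27* and the pool held 7.

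**Figure D1:**
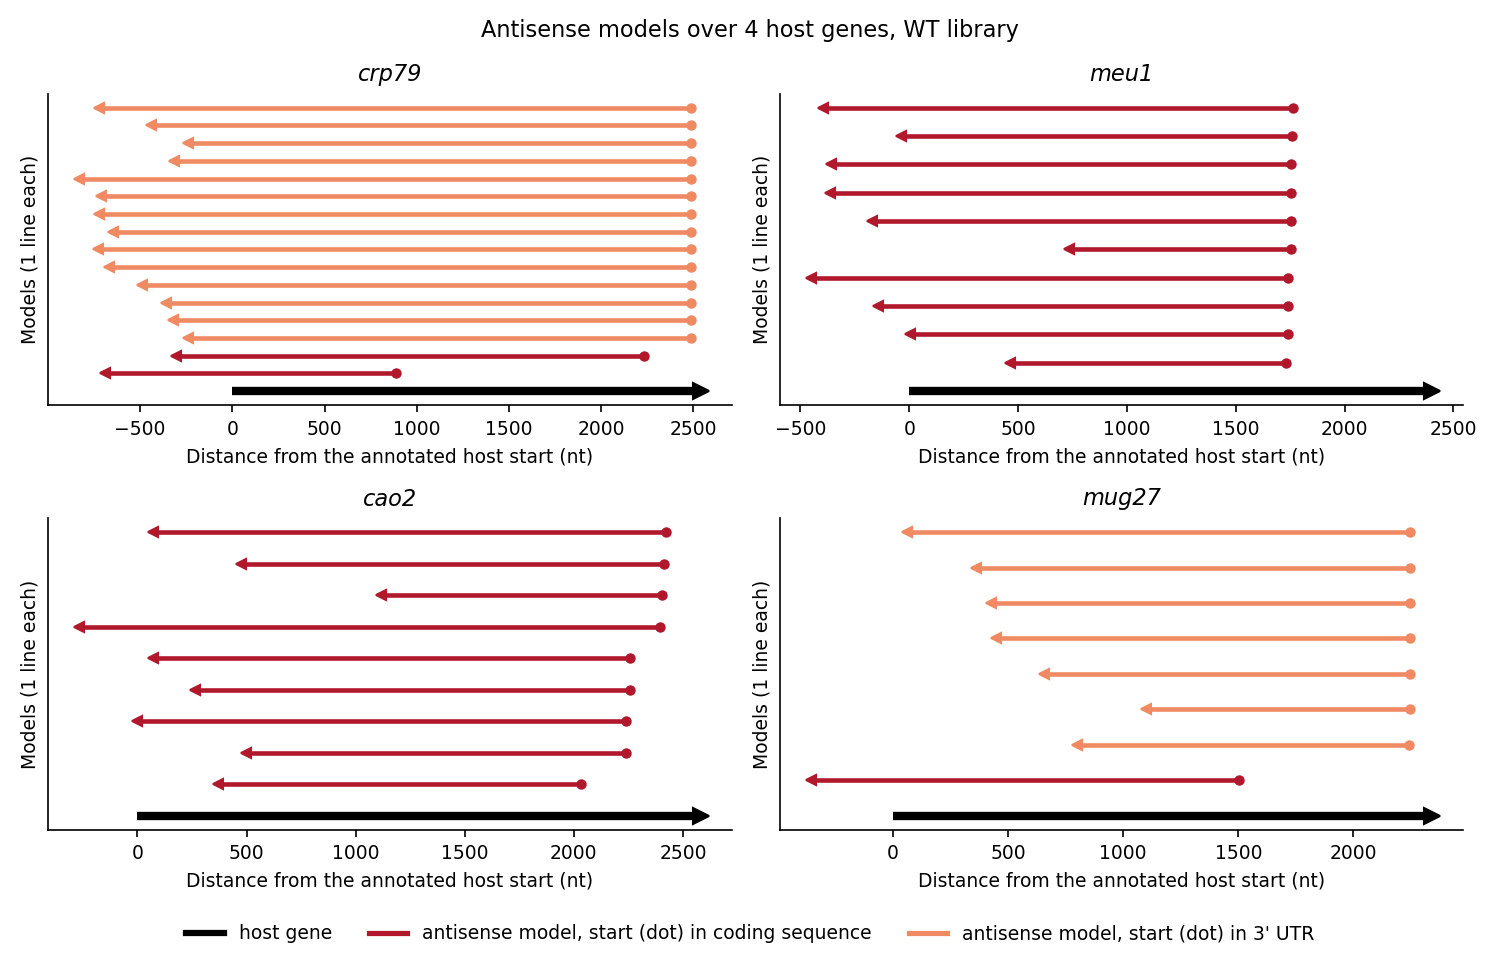
Antisense models over *crp79*, *meu1*, *cao2* and *mug27* in the WT library. The x axis is the distance in nt from the annotated start of the host, the black arrow is the host from start to end, and each coloured line spans 1 model from its start (dot) to its 3′ end (arrowhead), without showing introns. In *crp79*, 14 of 16 models leave from 1 start cluster in the 3′ UTR, and the 8 models of *mug27* and 10 of *meu1* have 2 and 1 start clusters. Models that differ only by a shorter 5′ end were joined by the authors' collapse, so starts that share a 3′ end are not all shown.

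*cao2* (SPBC1289.16c, II:4426157-4428738, − strand) encodes a copper amine oxidase-like protein. Its 9 models fell into 3 start clusters of 4, 4 and 1, all in the coding sequence, at 161 to 188, 324 to 341 and 549 nt from the gene's end. They covered 54.1% to 96.5% of the coding sequence and 2 of them ended past its annotated start.

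*pma2* (SPCC1020.01c, III:793179-796301, + strand) encodes a plasma membrane proton ATPase. Its models differed from those of *crp79* in their starts. The 8 models came from 6 start clusters, all in the coding sequence and 329 to 1834 nt from the gene's end. All 8 ended 513 to 1561 nt past the annotated start, and 1 of them was the longest antisense model of the library at 4235 nt. WT held no sense model of *pma2*, the pool held 1, and no annotated non-coding gene lay under the antisense models.

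*num1* (SPBC216.02, II:898056-901363, + strand), also named *mcp5*, anchors dynein at the cell cortex. Its 7 models started in the middle of the coding sequence, 4 of them 1430 to 1457 nt and 3 of them 1574 to 1580 nt from the gene's end. All 7 ended inside the gene, 37 to 649 nt short of its start. These models therefore lay wholly within the gene, with lengths of 1229 to 1691 nt.

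*hhy1* (SPAC1F8.04c, I:92387-93879, − strand), annotated as a hydrolase, and *meu18* (SPBC409.11, II:1158594-1160295, + strand) had starts outside the gene. In *hhy1*, 6 of 7 models started at I:91897 or I:91907, 480 to 490 nt beyond the gene's end, and the seventh at I:91667. In *meu18*, 5 of 7 started at a single base, II:1160724, 429 nt beyond the gene's end. In *meu18* the antisense models stood beside 9 sense models, 3 of which covered 50% or more of the coding sequence.

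SPBP8B7.32 (II:3630377-3634113, + strand) encodes an uncharacterised protein, and *mbx2* (SPBC317.01, II:3626639-3628658, + strand) a MADS-box transcription factor. Models that ran over both were counted for both. All 11 models of SPBP8B7.32 started in its long annotated 3′ UTR and covered its whole coding sequence. They ended 1473 to 2287 nt past its start. For *mbx2*, the cluster with most models shared the start at II:3631004 with SPBP8B7.32, and only 1 of 7 models ended past the start of *mbx2*. That model covered 61.9% of the coding sequence of *mbx2*. The others covered 0% of it and reached only the 3′ UTR of *mbx2*.

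Hosts were longer than the other protein-coding genes. Their median length was 2033.5 bp (median's 95% interval 1982–2222, n = 430), against 1741 bp (1702–1778, n = 4683). A longer gene offers more bases to overlap, and the part of length in the share of hosts was not tested. Of the genes of 1 kb or more, 391 of 4267 were hosts (9.16%), and of the shorter genes 39 of 846 (4.61%). Hosts carried an annotated intron less often, 166 of 430 (38.6%, 34.0–43.4) against 2289 of 4683 (48.9%, 47.4–50.3). They also had both UTRs annotated less often, 76.5% against 85.5%.

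Hosts lay close to a gene that follows on the same strand. The next gene downstream was on the same strand for 329 of 430 hosts (76.5%, 72.2–80.4) and for 2813 of 4678 other genes (60.1%, 58.7–61.5). The rule itself favours this arrangement, because a model that overlaps a convergent neighbour lies on an exon of its own strand and is left out. Among genes with such a neighbour, the distance to it had a median of 356 nt for hosts (317–427) and 584 nt for the others (543–640).

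The models started mostly inside their hosts. The start lay in the coding sequence for 275 models (37.3%), in the 3′ UTR for 174 (23.6%), in the 5′ UTR for 15, in an intron for 2 and outside the host for 271 (36.8%). Inside starts thus made up 466 of 737 (63.2%, 59.6–66.7). When the models were grouped into 487 clusters of starts within 50 nt, 315 clusters were inside (64.7%), so the share did not rest on hosts with many models. Of the clusters, 343 held a single model.

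Starts crowded towards the 3′ end of the host. When hosts of 1 kb or more were cut into 10 equal parts, the part at the 3′ end held 147 starts and the one before it 91, whereas each of the first 4 parts held between 15 and 20. The part at the 3′ end thus took 32.7% of these starts. These counts are of models, so hosts with many models weigh more, and *crp79* gave 14 of the 147. The authors' collapse also absorbed models with a shorter 5′ end into longer ones with the same 3′ end. That removes starts nearer the host's start, and its part in this pattern was not tested. From the start to the end of the host that held it, the median distance was 416 nt (352–486, range 1 to 7055, n = 466).

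**Figure D2:**
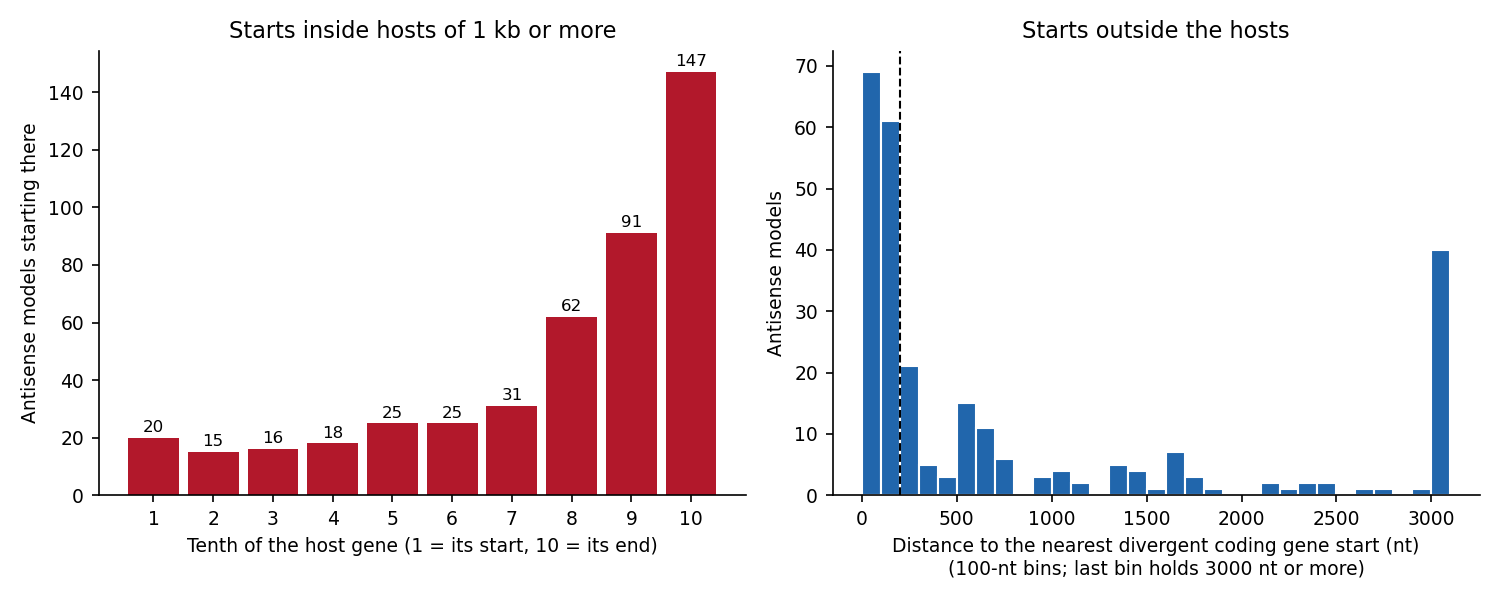
Where the antisense models started. Left, the number of starts in each of 10 equal parts of hosts of 1 kb or more, from the host's start (1) to its end (10), with 20 in the part at the start and 147 in the part at the end. Right, for the 271 starts outside the hosts, the distance in nt to the nearest start of a coding gene pointing away, in bins of 100 nt with the last bin open and a dashed line at 200 nt. The bars left of that line hold 131 models. Starts are counted per model, after the authors' collapse.

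Many starts lay beside the start of another coding gene that pointed the other way. Of the 271 outside starts, 131 were within 200 nt of such a divergent gene start (48.3%, 42.3–54.5) and 159 within 500 nt (58.7%), with a median distance of 206 nt. For 222 of them (81.9%) that gene was the next gene downstream of the host. Part of this nearness follows from where such starts can lie, in the gap between a host and the gene that follows. Of all positions within 1 kb beyond host ends that are not on a gene of the antisense strand, 13.3% were within 200 nt of a divergent start, against 116 of the 242 outside starts in that range (47.9%, 41.5–54.4). Within the gaps between 132 hosts and a same-strand neighbour that held a start, it was 23.7% of positions and 129 of 222 starts (58.1%, 51.3–64.7). Starts in the 3′ UTR showed the pattern too, at 65 of 174 models (37.4%, 30.2–45.0) and 28 of 104 start clusters (26.9%, 18.7–36.5). Of all the base positions in the 3′ UTRs of hosts, 7.62% were that close to a divergent start. Of 7542 start clusters of sense models, 657 were (8.71%, 8.08–9.37). Of the 275 models that started in the coding sequence, 2 lay that close to one.

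Divergent genes with 4 models within 200 nt, counted over outside starts, were chosen as examples after their values were seen. *rrp15*, which encodes an rRNA processing protein, had 4 over *yea6*. *thi20*, which encodes phosphomethylpyrimidine kinase, had 4 over *thi201*, and *cop1*, which encodes a coatomer subunit, had 4 over *mfm3*. Of the 271 outside starts, 112 (41.3%) had no divergent start within 500 nt.

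Antisense starts carried the base pair usual at fission yeast TSSs. A pyrimidine followed by a purine was found at 442 of 487 antisense start clusters (90.8%, 87.8–93.2), as at each of the starts printed above, and at 6311 of 7542 sense clusters (83.7%, 82.8–84.5). Counted per model, the shares were 91.6% (89.3–93.5) and 90.8% (90.4–91.2). Over all positions of the hosts on the antisense strand, 22.8% had that pair. The share was 87.0% (81.5–91.3) for starts in the coding sequence and 94.8% (90.3–97.6) for outside starts.

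Base composition before the start differed with where the start lay. In the 150 bases upstream, GC content was 37.8% ± 6.43 (SD over 200 clusters) for starts in the coding sequence, 31.4% ± 5.93 (104 clusters) in the 3′ UTR and 33.5% ± 6.05 (172 clusters) outside, against 34.4% ± 5.86 for sense starts (7542 clusters). TATAAA, searched on the antisense strand in the 60 bases before the start, occurred at 4 of 200 coding starts (2%, 0.548–5.04), 14 of 104 in the 3′ UTR (13.5%, 7.56–21.6) and 12 of 172 outside (6.98%, 3.66–11.9). It occurred at 456 of 7542 sense starts (6.05%) and in 3.80% of 60-base windows over the hosts. The starts in coding sequence therefore had higher GC content and fewer TATAAA matches than those in 3′ UTRs. Neither was measured at other positions of each kind of region, so starts and the regions around them cannot be told apart here.

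The models often crossed the whole host. They covered a median of 84.7% of the host's coding sequence (80.3–88.1), and 243 of 737 (33.0%, 29.6–36.5) covered all of it. Of the 737, 708 (96.1%) lay on at least part of a host's coding sequence. The 3′ end lay past the annotated start of the host for 305 models (41.4%, 37.8–45.0), by a median of 304 nt (259–347). Where both UTRs of the host were annotated, it was 137 of 496 (27.6%), and past the first codon it was 423 of 737 (57.4%). Ends thus fell on both sides of the host's start, and how many lay beyond it depended on where the annotation put that start.

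The antisense models were shorter than the sense models. Their median length was 1650 nt (1605–1697, quartiles 1339 and 2055, n = 737), against 1862 nt (1852–1874) for 24371 sense models of the same library. Antisense models of the pool had a median of 1388 nt (1377–1401, n = 9640). Few models of WT were short, with 5.02% of antisense and 5.66% of all models under 1000 nt, so the library held few short models of either kind. The 3 longest lay over *pma2* (4235 nt), *tcb2* (4061 nt), which encodes a tricalbin of contacts between ER and plasma membrane, and *plb5* (3719 nt), which encodes a phospholipase. The 3 shortest lay over *hsp3101* (646 nt), a glyoxalase gene, *ftm3* (748 nt), which encodes a transmembrane helix protein, and *gem8* (776 nt). Models that started in the coding sequence had a median of 1578 nt (1502–1650), those from the 3′ UTR 1793 nt (1646–1874) and those from outside 1693 nt (1630–1767).

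**Figure D3:**
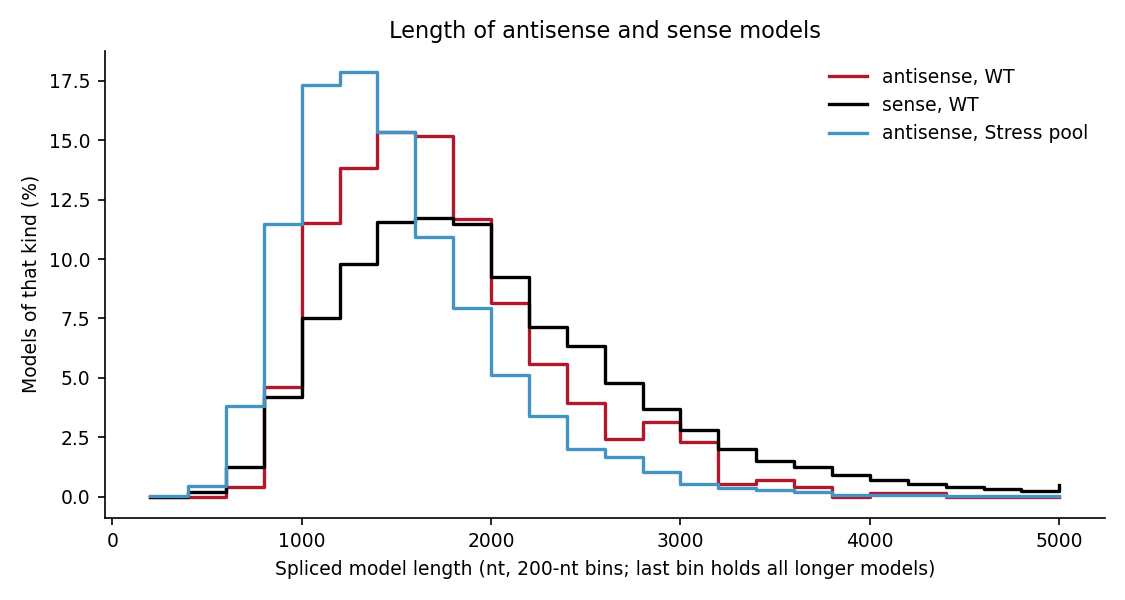
Length of antisense models of WT (red, n = 737), sense models of WT (black, n = 24371) and antisense models of the Stress pool (blue, n = 9640). The x axis is the spliced length in nt in bins of 200 nt, with all models of 5000 nt or more in the last, and the y axis is the percentage of models of that kind. Medians are 1650, 1862 and 1388 nt.

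Splicing was rare in antisense models. An intron was present in 66 of 737 (8.96%, 6.99–11.3), against 11376 of 24371 sense models (46.7%, 46.1–47.3). None had 3 introns. The 6 models with 2 introns, named after their values were seen, lay over *crp79*, *usp101* together with *pth2*, *abc1*, *mcp3*, *ftm3*, and *ftm5* together with *ftm6*. The spliced models lay over 48 hosts and contained 57 distinct introns.

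Nearly all of these introns had the ends of ordinary fission yeast introns on the antisense strand. The authors mapped with the splice setting of minimap2, and its part in this share was not tested. GT and AG stood at the ends of 56 of the 57 (98.2%, 90.6–99.96), as did 97.4% of the introns of sense models. The exception, 40 nt long in 2 models over *cwf19*, at I:1102299-1102338, began with GT and ended with TG. None of the 57 was the mirror of an annotated intron of a coding gene, which allows a share of up to 6.27%. The pool held 51 of them (89.5%, 78.5–96.0). Their median length was 59 nt (55–69, range 38 to 249), against 56 nt for annotated introns. CTAAC was found within 18 of 57 (31.6%, 19.9–45.2), in 7 of 57 read on the other strand (12.3%, 5.08–23.7), and in 44.4% of annotated introns of that length range. The intron began with GTAAG in 20 of 57 (35.1%, 22.9–48.9) and in 40.2% of the annotated ones.

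The middle of the intron lay in the host's coding sequence for 22, outside the host for 20, in the 3′ UTR for 12 and in a host intron for 3. In *crp79*, the intron of 72 nt shown above was used in 6 models and the one of 54 nt, beyond the host's start, in 2. In *sfc3*, a transcription factor gene, the printed introns of 42 and 74 nt shared their 3′ splice site and differed in the 5′ splice site. The models over *ftm3*, near an end of chromosome I, and those over *ftm5* and the adjacent *ftm6*, near an end of chromosome II, each had introns of 249 and 210 nt. Between the chromosomes these introns had 2 and 0 mismatches, so which locus the models came from is uncertain.

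Most of the models lay where non-coding genes are already annotated. A lncRNA or ncRNA gene of the same strand overlapped 655 of 737 (88.9%, 86.4–91.1), and 631 (85.6%) were covered by such genes over 50% or more of their length. A start within 50 nt of the annotated start of the non-coding gene was found for 209 (28.4%, 25.13–31.8). Among the hosts with most models, no non-coding gene lay under the models of *meu1* and *pma2*. Most models thus started more than 50 nt from the annotated start, and their 3′ ends were not compared with the annotation.

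The hosts of WT were nearly all found again in the Stress pool, which itself contains untreated WT cells. Of 430 hosts, 425 had an antisense model there (98.8%, 97.3–99.6), against 2414 of 4683 other coding genes (51.5%, 50.1–53.0) and 55.5% of all coding genes. The hosts had a median of 7 pool models each (range 0 to 31). The hosts without one, each with 1 model in WT, were *cph2*, which encodes a PHD protein of the Clr6 histone deacetylase, *mug114*, the retrotransposon *Tf2-6*, which has near-identical copies in the genome, *isp4*, which encodes an oligopeptide transporter, and *top3*, which encodes topoisomerase III. A pool model with ends within 20 nt and junctions within 10 nt was found for 280 of 737 models (38.0%, 34.5–41.6). With 100 nt allowed at both ends and at junctions, it was 551 (74.8%), and a pool model on the same strand started within 100 nt of 681 (92.4%). A pool model on the same strand ended within 100 nt of the 3′ end of 721 (97.8%, 96.5–98.8). The looser criteria include the stricter ones, and a model of any kind, sense models of a neighbouring gene included, could meet those on the start or the end alone.

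Hosts had fewer sense models than other genes. This comparison was added after the values were seen. Among genes of 1 kb or more, 34 of 391 hosts had no sense model in WT (8.70%, 6.10–11.9), against 101 of 3876 other genes (2.61%, 2.13–3.16), and the median number of sense models was 4 (3–4) against 5. Counted the other way, 34 of the 135 genes of 1 kb or more without a sense model were hosts (25.2%, 18.1–33.4), against 9.16% of all genes of that length. Without the genes of the 3 meiotic lists below, the shares were 14 of 352 hosts (3.98%, 2.19–6.58) and 68 of 3764 others (1.81%, 1.41–2.28), intervals that overlap slightly. Over all lengths, they were 50 of 430 (11.6%, 8.75–15.04) and 380 of 4683 (8.11%, 7.35–8.93).

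The share without a sense model was 19 of 238 for hosts with 1 antisense model (7.98%, 4.87–12.2), 15 of 106 with 2 (14.2%, 8.14–22.3), 12 of 66 with 3 to 4 (18.2%, 9.76–29.6) and 4 of 20 with 5 or more (20%, 5.73–43.7). These intervals overlap. A sense model can be missing from a library because of its depth, and this was not tested.

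**Figure D4:**
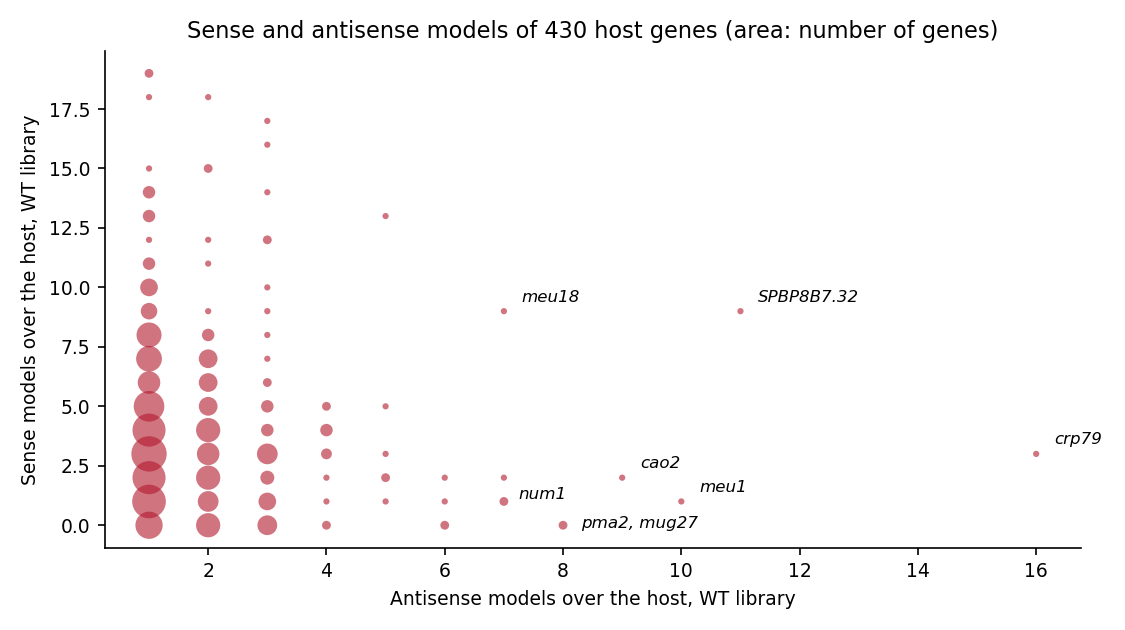
Number of sense models (y axis) against number of antisense models (x axis) of each of the 430 hosts in the WT library, with the area of a point proportional to the number of genes at that place. Of the hosts, 238 have 1 antisense model and 106 have 2. Among those with many, *pma2* and *mug27* have 8 antisense and 0 sense models. SPBP8B7.32 has 11 antisense and 9 sense models, and *meu18* has 7 and 9.

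The hosts were then read by function. Of 48 genes of meiosis and sporulation, 13 were hosts (27.1%, 15.3–41.8), beside the background of 8.41%. Of 110 *mug* and *meu* genes, named for being upregulated in meiosis, 23 were (20.9%, 13.7–29.7). Another list holds 65 genes from a published set of meiotically upregulated genes that the study's mRNA-seq found upregulated in *hrp3*Δ cells. It had 20 hosts (30.8%, 19.9–43.4). This list overlaps the other lists. All the lists were chosen with earlier results of these data known, so none of these shares is independent evidence. Many genes of these lists lacked a sense model in WT, with 23 of the 48, 31 of the 110 and 38 of the 65.

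Among recombination genes, *rec7*, needed for the breaks that start meiotic recombination, had 3 antisense models of 2171, 2347 and 3456 nt, all of which covered its whole coding sequence. *rec10*, a component of linear elements, had 2 that started in the coding sequence 777 and 806 nt from its end. *hop1*, a linear element protein gene, had 2 that covered 73.4% and 84.4% of its coding sequence. *dmc1*, which encodes the meiotic recombinase, had 2 that started 135 and 355 nt beyond its end and covered 100% and 97.6%. *rec24* had 1 of 1800 nt. Sense models in WT numbered 0 for *rec7*, *hop1* and *dmc1*, 1 for *rec10* and 2 for *rec24*.

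Among genes of spore formation, *spo4*, a kinase of meiosis II, had 3 models of 2431 to 2504 nt that started 350 to 368 nt beyond its end and ran 343 to 371 nt past its start. *isp3*, a spore coat protein gene, had 3 of 1012, 1272 and 1449 nt. *bgs2*, a glucan synthase of the spore wall, had 3 that started far from its end, at 4730 to 4741 nt, and covered 23.4% to 23.6% of its coding sequence. *spn5*, a meiotic septin gene, had 1 spliced model. *mcp3* had 2, both spliced. *atf21*, which encodes an Atf-CREB transcription factor, had 3. *spo4*, *spn5*, *mcp3* and *atf21* had no sense model, and *isp3* had 1 and *bgs2* 3. *crp79* and *num1*, described above, complete the 13.

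The other 35 genes of that list had no antisense model in WT. Among them were *mei2*, *mei3* and *ste11*, regulators of entry into meiosis, *mei4*, the transcription factor of middle meiotic genes, and *mes1*, which acts at meiosis II, as well as *rec8*, the meiotic cohesin, and *rec12*, which makes the breaks. In the pool, *rec8* had 4 antisense models and *rec12* 3, while *mei2*, *mei3* and *mes1* had none.

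**Figure D5:**
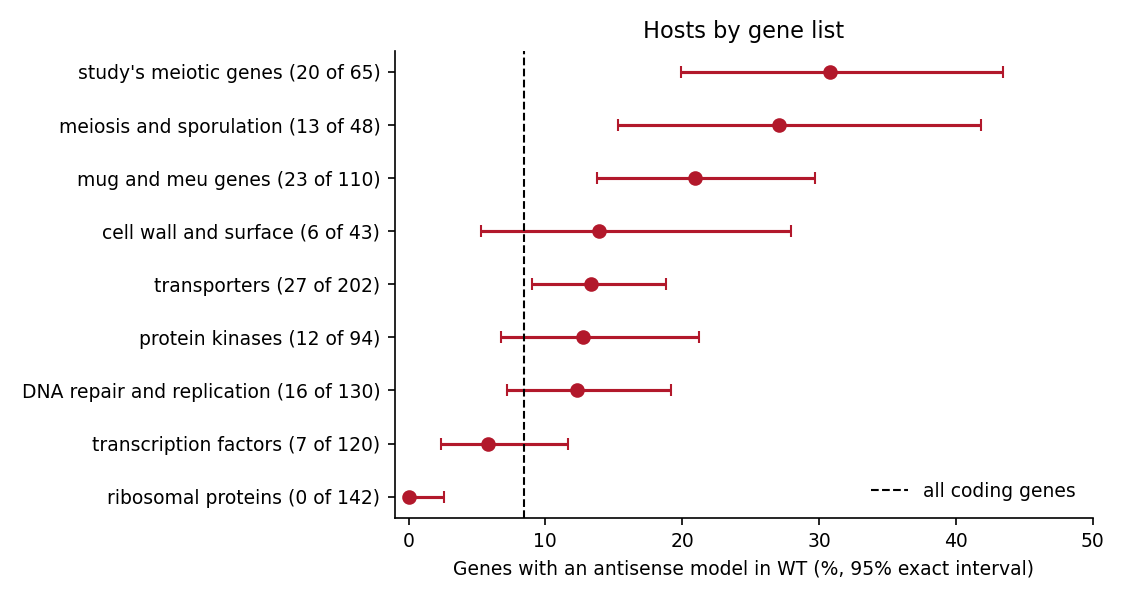
Share of genes with an antisense model in WT for 9 gene lists of at least 43 genes. The x axis is the percentage of the list's genes that are hosts, points are the shares, bars their 95% exact intervals, and the dashed line the 8.41% of all coding genes. The 3 meiotic lists have intervals above that line, as do transporters, narrowly, with a lower limit of 8.997%. Ribosomal protein genes, at 0 of 142, lie below it. The lists were chosen with earlier results of these data known.

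The intervals of the remaining lists included the background, except those of transporter and ribosomal protein genes. Transporter genes were hosts in 27 of 202 cases (13.4%, 8.997–18.8), with *yea6*, *opt3* and SPCC576.17c at 4 models each and *vsb1* at 3. Their interval cleared the background narrowly and included the 9.16% of all genes of 1 kb or more. Transporter genes had a median length of 2210 bp, and the part of length in their share was not tested. Cell wall and surface genes were hosts in 6 of 43 (14.0%, 5.30–27.9), protein kinase genes in 12 of 94 (12.8%, 6.77–21.2) with *mug27* at 8 and *ppk31* at 4, and DNA repair and replication genes in 16 of 130 (12.3%, 7.20–19.2) with *pol4* at 5. Transcription factor genes were hosts in 7 of 120 (5.83%, 2.38–11.6), with *mbx2* at 7, most of which lay on none of its coding sequence.

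No ribosomal protein gene was a host, with 0 of 142, which allows a share of up to 2.56%. These genes are short, with a median of 686 bp, and 36 of them had no sense model either. The part of gene length in this count was not tested. Of 9 genes picked because the study names them, 0 had an antisense model in WT, which allows a share of up to 33.6% and so includes the background of 8.41%. In the pool *hrp1* had 18, *orc4* and *spb70* 12 each, *taf5* 10, *atg9* and *rap1* 7 each, *crt10* 6, *hrp3* 2 and *prf1* 0. The nested-gene hosts *chk1*, *lam2* and *tfg2* were 0 of 3 in WT, which allows up to 70.8%, and in the pool *chk1* had 1. Neither count can be told from the background.

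Features that can make false antisense models were also measured. An adenine-rich stretch in the genome after the 3′ end (at least 12 A in 20 bases), where an oligo-dT primer can bind inside a transcript, followed 106 of 737 antisense models (14.4%, 11.9–17.1) and 3193 of 24371 sense models (13.1%, 12.7–13.5). An antisense model with both ends within 20 nt of those of a sense model, as a read given the wrong strand would have, was found once, over *agl1*, an alpha-glucosidase gene (0.136%, 0.00344–0.754). The antisense models also held short open reading frames. The longest had a median of 60 codons (58–61), against 390 (387–393) in sense models, and 83 of 737 (11.3%) held one of 100 codons or more.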

How the data were processed

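The authors identified isoforms from HiFi reads with Iso-Seq4, mapped them with minimap2 and collapsed them with TAMA Collapse (tolerance 100 nt, set for libraries without cap selection, in which a model truncated at its 5′ end is absorbed by a longer one). The deposited BED12 files give the position, strand and exon blocks of each model, in other words positions and no abundance. The deposited score is 40 on every model and was not used. The labels' notes name ASM294v2. Models were used with RefSeq ASM294v3, since none lay past a chromosome end and 97.2% of WT introns read GT-AG on it.

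Members, hosts and distances were computed with Python 3.11.15, NumPy 2.4.6 and SciPy 1.17.1, and plots with Matplotlib 3.10.9. A sense model shares an exon base with a coding gene on its strand. The rule was run on simulated single-exon models placed inside genes with no kept gene opposite, where 600 of 600 planted models were assigned correctly. Spliced models and convergent neighbours were not simulated, so only simple cases were checked. Shares have exact Clopper-Pearson 95% intervals. Genes named are the 10 hosts with most models, hosts of the 3 longest and 3 shortest, hosts not found in the pool, hosts on the meiotic, study-named and nested lists, and up to 4 per other list. Members and lists were chosen with earlier results of these data known. Of the study's meiotic list, 1 gene ID could not be matched. A list of 5 genus-specific genes held no host. 1 divergent gene is not reported here.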

Additional observations from a re-analysis of the deposited data

Results flagged for a closer look

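Outside the 3 chromosomes, the WT library held 39 models on the mitochondrial genome and 24 on the sequence of the chromosome II telomeric gap, 63 of 26120 in all. They were set aside from every count above because the coding genes used are nuclear, and their strand against genes was not compared.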

How the results depend on the processing

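No paired analysis was possible because each condition has 1 library, and no replicate could be left out. Of 31 alternatives over 12 results, 20 stayed within 1.5 times the main count or within the main value's 95% interval and 11 moved. With lncRNA and ncRNA genes kept on the own strand, 82 models and 50 hosts were left, by construction, since most models lie on such genes. Among genes with both UTRs annotated, the median host length was 2274 bp. Ends past the host's start were 57.4% when counted from the first codon and 27.6% when both UTRs were annotated. Members covered over 50% or more of their length by non-coding genes were 85.6%. Pool counterparts rose to 74.8% at 100 nt and 92.4% by start alone. A run of 6 A in 10 bases after the end gave 7.46%, and mirror models within 100 nt were 2.44%. Of the alternatives added after the data were seen, leaving out the meiotic lists took hosts without a sense model from 8.70% to 3.98%. Depth limits every absence: the reads per model are unknown, and few models are under 1000 nt.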
